A study of Arabidopsis thaliana with 10 samples.

Results

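Binding sites of SEPALLATA3 (SEP3) and AGAMOUS (AG) complexes that fell inside coding exons were examined in Arabidopsis thaliana. A site was taken as a member when its peak summit, the position of highest signal in a called peak, lay in a coding exon of any protein-coding transcript of the TAIR10 annotation. Of 43308 summits in 9 purified libraries, 2037 met this rule and 41271 did not. The coding summits fell in 804 of 27444 protein-coding genes (2.93%), and 5 of them lay over more than 1 gene. The rule used position only, so enrichment, sequence and replication were free to vary among members.

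SEP3∆tet-AG, SEP3-AG and SEP3 were compared on naked genomic DNA of 2-week-old seedlings, which carries no chromatin. SEP3∆tet-AG (2 libraries) combines AG with a SEP3 splice form that lacks part of the tetramerisation region, SEP3-AG (3 libraries) is the full-length pair, and SEP3 (4 libraries) is the single protein. The proteins were made in vitro in wheat germ extract. FLAG and then Myc tags were used to purify both heteromers, whereas SEP3 went through the FLAG step alone, so protein and purification cannot be told apart in comparisons with SEP3. A single input DNA library was the control of all 9 peak lists. The lists held 2329 to 3331 summits for SEP3∆tet-AG, 6643 to 9588 for SEP3-AG and 473 to 8916 for SEP3. SEP3 replicate 4 had the longest SEP3 list and peak names with a prefix that the other 8 lists did not share. Nothing in the labels ties libraries to separate protein preparations, so p-values measure only the spread between these libraries.

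SEP3 and AG belong to the MADS-domain family of transcription factors, which bind DNA as dimers at the CArG box, a short palindrome-like element of CC, a run of A and T bases and GG. SEP3 also joins dimers into tetramers, and together with AG it specifies the reproductive organs of the flower. Regulatory sites are usually sought in promoters and introns, and a coding exon must keep its reading frame whatever it binds. In this assay a coding site is only a stretch of DNA that a complex retained.

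The sequences at the leading coding sites are printed first because most of them carry a CArG box or a near match. Each shows 40 bases of the coding strand (TAIR10.1), with the 10 bases of the CArG box nearest to the summit in capitals. The box was searched as CC, then 6 bases of A or T, then GG, on both strands, and where no perfect box lay wholly within 50 bp of the summit, a box with 1 mismatch was taken.
AT2G28510, chr2:12199708-12199747, minus strand, 1 mismatch: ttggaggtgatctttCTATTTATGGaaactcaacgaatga
BEE3, chr1:27760355-27760394, plus strand, perfect: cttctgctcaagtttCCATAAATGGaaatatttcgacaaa
ARV1, chr1:8342-8381, minus strand, perfect: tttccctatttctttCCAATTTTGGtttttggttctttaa
AT4G37190, chr4:17509315-17509354, plus strand, perfect: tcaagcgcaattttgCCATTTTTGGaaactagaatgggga
NAC076, chr4:17112790-17112829, minus strand, 1 mismatch: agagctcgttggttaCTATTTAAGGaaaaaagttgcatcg
AT3G50190, chr3:18609225-18609264, minus strand, perfect: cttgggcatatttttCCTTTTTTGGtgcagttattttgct
Of these 6 genes, 4 had a perfect box and 2 a box with 1 mismatch. In each, runs of A or T flank the box on at least 1 side.

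Coding exons held a small share of the summits of every library. In SEP3∆tet-AG, 156 of 3331 summits (4.68%) and 114 of 2329 (4.89%) were coding. In SEP3-AG the counts were 444 of 8888 (5.0%), 379 of 6643 (5.71%) and 566 of 9588 (5.90%). In SEP3 they were 19 of 473 (4.02%), 91 of 1225 (7.43%), 43 of 1915 (2.25%) and 225 of 8916 (2.52%). The 4 SEP3 libraries spread on both sides of the heteromer libraries, and replicate 2 lay above all others. Coding exons make up 28.3% of the nuclear genome, and the coding share was below this in 9 of 9 libraries, with a mean difference of -23.6 percentage points (exact two-sided sign-flip permutation test over libraries, p = 0.0039, the smallest that 9 libraries allow). Of 6 sign-flip tests made, 4 were added after the data had been seen, namely those of coding share against the genome, of base composition, of box classes and of exon edges. After Benjamini-Hochberg adjustment over the 6, each result with the smallest p had an adjusted p of 0.0047.

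**Figure D1:**
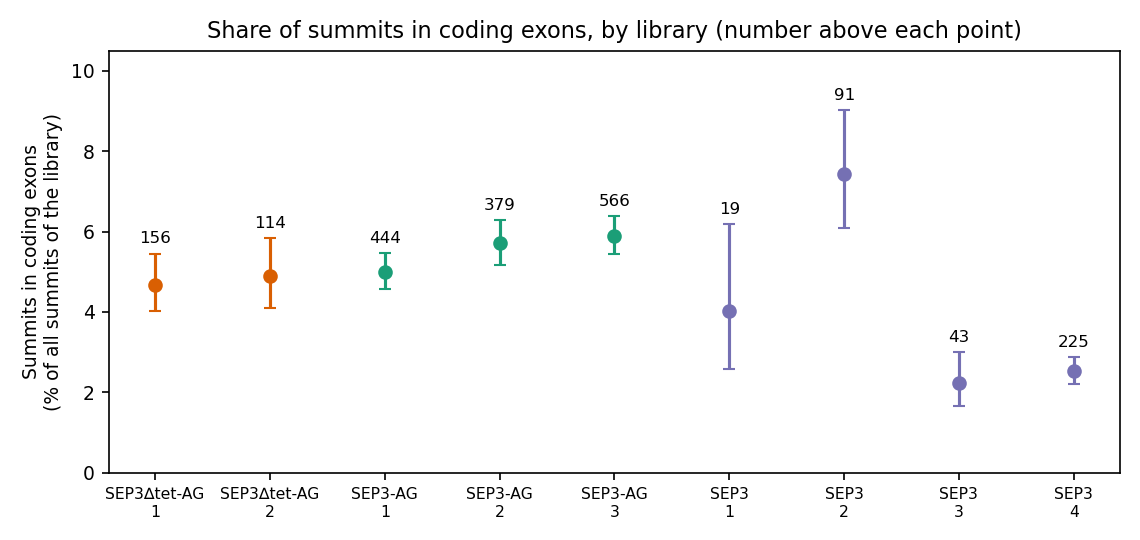
Share of all summits of each library that lay in a coding exon (points, percent, with 95% Wilson intervals that cover counting error only) for SEP3∆tet-AG, SEP3-AG and SEP3 libraries by replicate number; numbers above the points are coding summits. The SEP3∆tet-AG and SEP3-AG libraries sit between 4.68% and 5.90%, and the SEP3 libraries between 2.25% and 7.43%.

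No difference in this share between complexes passed the test over libraries. The mean was 4.79 ± 0.15% in SEP3∆tet-AG (SD, n = 2), 5.53 ± 0.48% in SEP3-AG (n = 3) and 4.05 ± 2.38% in SEP3 (n = 4). None of the 12 comparisons between complexes in coding share, box share, position and repeated exon share (4 measures in 3 pairs) passed after Benjamini-Hochberg adjustment, the lowest adjusted p being 0.30 (exact permutation tests over libraries). With so few libraries the smallest unadjusted p that can be reached was 0.10 for SEP3∆tet-AG against SEP3-AG, 0.067 for SEP3∆tet-AG against SEP3 and 0.029 for SEP3-AG against SEP3. All 3 differences in coding share changed sign when the lists of a pair were cut to equal length.

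Coding summits that recurred between replicates picked out a small part of the gene set. A summit in the coding exons was present in at least 2 libraries for 96 genes in SEP3∆tet-AG (0.35% of protein-coding genes), 419 genes in SEP3-AG (1.53%) and 72 genes in SEP3 (0.262%). These sets overlapped, with 33 genes in all 3 and 456 in any. Of the SEP3∆tet-AG genes 81.2% were also SEP3-AG genes, and of the SEP3-AG genes 18.6% were also SEP3∆tet-AG genes. Of the SEP3 genes 70.8% were among the SEP3-AG genes, against 12.2% the other way. Without SEP3 replicate 4 the SEP3 set held 25 genes, and without replicate 2 it held 30.

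Most genes were seen rarely: 317 of the 804 had a coding summit in a single library, and 8 had one in all 9. The 8 genes were AT2G28510, BEE3, ARV1, AT4G37190, NAC076, AT3G50190, MPS1 and AT3G24715. The values below are the fold enrichments over the input-derived local background that the authors' peak caller gave in each list. They describe each library on its own scale and were not tested between complexes. SEP3-AG libraries had higher values in general. Their median over coding summits averaged 4.34, against 3.46 in SEP3∆tet-AG libraries and 3.43 in SEP3 libraries. Over other summits it averaged 4.94, 3.70 and 3.42 in the same order.

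The Dof-type zinc finger gene AT2G28510 encodes a member of a plant-specific family of DNA-binding proteins. Its summit, in coding exon 2 of 2, was enriched 8.78- and 6.85-fold in SEP3∆tet-AG libraries, 11.6-, 11.3- and 14.8-fold in SEP3-AG libraries, and 4.82-, 6.79-, 4.82- and 6.75-fold in SEP3 libraries. All 3 SEP3-AG values lay above the other 6. Ranked by -log10 p within each list, where a low percentile is a strong peak, the order was not the same. The percentile was 5.28 and 3.91 in SEP3∆tet-AG libraries and 7.49, 7.68 and 2.57 in SEP3-AG libraries. In SEP3 libraries it was 1.90, 0.57, 6.01 and 0.50. BEE3, a basic helix-loop-helix factor induced early by brassinosteroids, had its summit in coding exon 1 of 6, 2.5 bp from the centre of a perfect box. Its enrichment was 9.47- and 5.47-fold in SEP3∆tet-AG libraries, 9.81-, 9.48- and 11.3-fold in SEP3-AG libraries, and 3.40-, 4.06-, 3.20- and 5.02-fold in SEP3 libraries. The lowest heteromer value was above the highest SEP3 value.

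ARV1, named for a yeast protein of sterol transport, was bound near the start of its coding sequence, 7.1% along it. It showed 8.65- and 7.10-fold enrichment in SEP3∆tet-AG libraries, 10.8-, 10.3- and 12.6-fold in SEP3-AG libraries, and 3.62-, 4.79-, 4.08- and 5.10-fold in SEP3 libraries. AT4G37190, a gene of the misato family named for a fruit fly protein, carried its perfect box in the last of 7 coding exons. It was enriched 7.97- and 5.37-fold in SEP3∆tet-AG libraries, 9.04-, 8.67- and 10.7-fold in SEP3-AG libraries, and 3.75-, 6.08-, 4.59- and 4.72-fold in SEP3 libraries. The 3 SEP3-AG values were the highest, and those of SEP3∆tet-AG and SEP3 overlapped. NAC076, also called VND2, belongs to the NAC factors that direct xylem vessel formation, and its site lay in coding exon 2 of 4. Its values were 6.14 and 4.45 in SEP3∆tet-AG libraries, 7.35, 5.62 and 8.67 in SEP3-AG libraries, and 3.95, 4.73, 3.77 and 5.18 in SEP3 libraries, in units of fold enrichment. Here SEP3∆tet-AG replicate 2 lay within the SEP3 range.

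AT3G50190, one of a cluster of genes for putative transmembrane proteins of the DUF247 family, was bound close to the end of its coding sequence, 95.9% along it. Its fold enrichment was 5.11 and 5.04 in SEP3∆tet-AG libraries, 11.9, 10.4 and 12.7 in SEP3-AG libraries, and 4.21, 4.17, 4.08 and 5.44 in SEP3 libraries. Both SEP3∆tet-AG values fell among those of SEP3 rather than those of SEP3-AG. MPS1, which is needed for normal meiosis, had the flattest fold profile of the 8, from 3.42 to 4.84 over all 9 libraries, with the groups overlapping. Its rank within the lists was not even. The percentile was 35.1 and 29.7 in SEP3∆tet-AG libraries, 56.6, 72.4 and 57.1 in SEP3-AG libraries, and 45.2, 22.1, 25.7 and 6.01 in SEP3 libraries. AT3G24715, a kinase gene, was the only one of the 8 with neither a perfect box nor a 1-mismatch box within 50 bp. Its fold enrichment was 6.22 and 4.55 in SEP3∆tet-AG libraries, 7.37, 6.94 and 9.09 in SEP3-AG libraries, and 3.00, 4.11, 2.92 and 3.47 in SEP3 libraries.

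**Figure D2:**
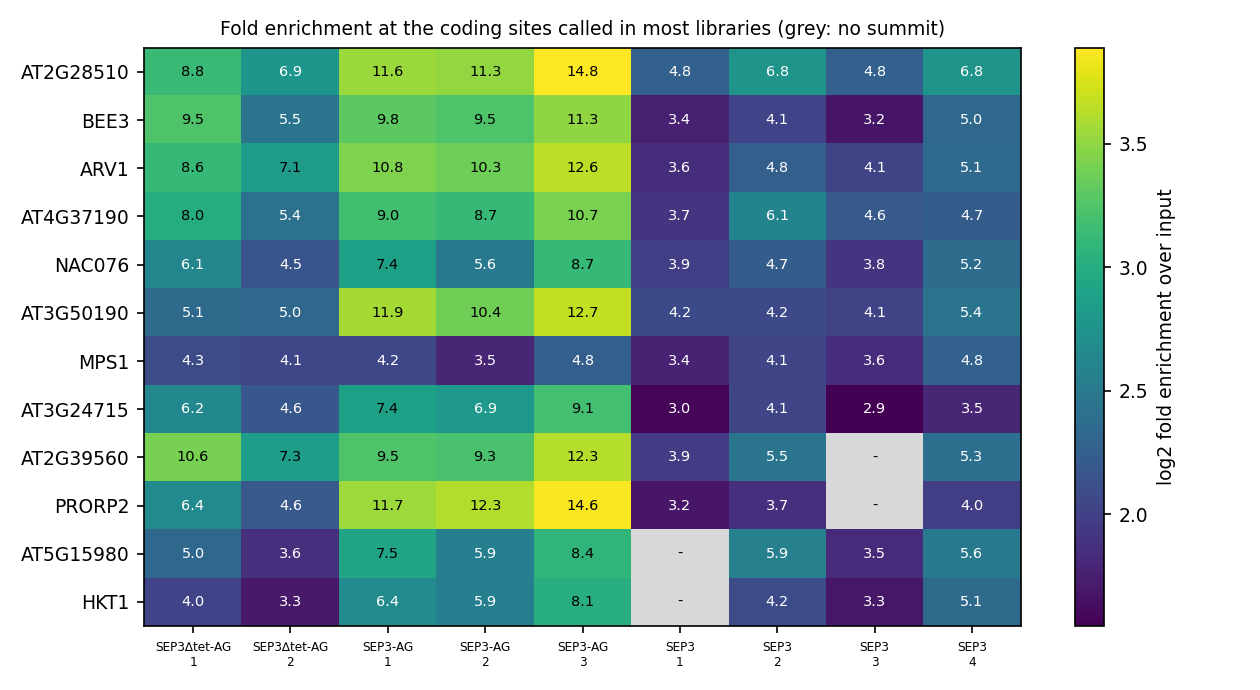
Fold enrichment over input (number in each cell; colour on a log2 scale) at the leading coding site of the 12 genes with a coding summit in most libraries, with SEP3∆tet-AG, SEP3-AG and SEP3 libraries from left to right and grey for no summit within 200 bp. AT2G28510 reaches 14.8 in SEP3-AG replicate 3, while MPS1 stays between 3.42 and 4.84 in all libraries.

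Another 8 genes had a coding summit in 8 libraries, and 4 of them complete the plot of the leading sites. AT2G39560 and PRORP2, a protein-only RNase P that trims the 5′ end of transfer RNA precursors, lacked a summit only in SEP3 replicate 3. The pentatricopeptide repeat gene AT5G15980 and HKT1, a sodium transporter, lacked one only in SEP3 replicate 1, which had the shortest list. PRORP2 reached 11.7-, 12.3- and 14.6-fold in SEP3-AG libraries.

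Genes with coding summits of a single complex were less clear-cut than the gene counts imply. Of the genes called in at least 2 libraries, 6 of 96 with SEP3∆tet-AG, 261 of 419 with SEP3-AG and 10 of 72 with SEP3 had no coding summit of another complex. The lists held 2830, 8373 and 3132 summits on average, in the same order. Outside coding exons the complexes were as unequal, with 2048, 7695 and 2113 sites called in at least 2 libraries. The larger number with SEP3-AG was thus not particular to coding exons, though sites of SEP3-AG alone were not counted outside them. Within 200 bp of the site, however, another complex had a summit just outside the exon at 3 of the 6, 24 of the 261 and 3 of the 10. AT3G51090 was coding in SEP3∆tet-AG (4.80- and 4.69-fold), but its site had summits outside the exon in SEP3-AG libraries (8.15-, 8.77- and 12.3-fold) and in SEP3 replicate 2 (2.25-fold). Likewise MEKK1, a kinase of defence signalling that the gene rule listed for SEP3, had a summit within 200 bp in all 9 libraries.

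The strongest sites of SEP3-AG alone included an immune receptor gene. RPS6, a TIR-NBS-LRR gene for resistance to Pseudomonas syringae, was enriched 12.5-, 12.5- and 14.2-fold in SEP3-AG libraries and had no summit within 200 bp in the other 6. The protein phosphatase gene AT3G17090 (11.4-, 11.7- and 13.8-fold) and the disease resistance gene AT2G16870 (11.5-, 11.8- and 13.3-fold) were also called in SEP3-AG libraries alone. RPS6 and AT3G17090 carried perfect boxes. For each complex up to 6 such genes were named, by best mean percentile within the lists. They came from 261 genes in SEP3-AG, 6 in SEP3∆tet-AG and 10 in SEP3, so named values are not like for like. The named sites of SEP3∆tet-AG or SEP3 with no nearby summit of another complex had lower values, at most 3.29 in SEP3∆tet-AG and 4.74 in SEP3. Examples were AT3G20850, a proline-rich protein gene (3.29- and 3.16-fold in SEP3∆tet-AG libraries), AT1G53285, a thionin gene (2.97- and 4.74-fold in SEP3 replicates 3 and 4), and CLT3, a transporter-like gene (4.24- and 4.18-fold in SEP3 replicates 2 and 4).

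Counting places rather than genes gave the same order of numbers. Summits within 200 bp were treated as 1 site, which left 837 coding sites, 16 of them with a summit in all 9 libraries. A site was centred on a coding summit of any library, and summits within 200 bp counted even when outside the exon. Consensus sites, with a summit in at least 2 libraries, numbered 143 in SEP3∆tet-AG, 551 in SEP3-AG and 127 in SEP3. At 67, 217 and 72 of these, at least 1 library of any complex had only a summit outside coding exons. SEP3-AG had a consensus site at 128 of the SEP3∆tet-AG coding sites (89.5%, 95% Wilson interval 83.4 to 93.5%), and at 89.6% of those outside coding exons. It had one at 97 of the coding sites found with SEP3 (76.4%, 68.3 to 82.9%), and at 78.2% of those outside. The intervals cover counting error only, and each includes the value outside coding exons. The 2 sets follow unlike rules, because sites outside were kept only where every library present had a summit outside coding exons.

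Coding summits carried CArG boxes more often than other summits of the same library. A perfect box lay within 50 bp of 21.2% and 19.3% of coding summits in SEP3∆tet-AG libraries, 16.7%, 18.2% and 14.8% in SEP3-AG libraries, and 26.3%, 24.2%, 20.9% and 21.3% in SEP3 libraries. For all other summits the shares were 11.8% and 12.5% in SEP3∆tet-AG libraries, 7.86%, 8.83% and 8.81% in SEP3-AG libraries, and 18.5%, 17.6%, 11.5% and 8.27% in SEP3 libraries. The coding share was higher in 9 of 9 libraries, by 8.57 ± 2.13 percentage points (SD, n = 9; exact two-sided sign-flip permutation test, p = 0.0039, the smallest possible). The libraries share one genome and one input, so they are not fully independent. With 1 mismatch allowed, the difference was 4.6 percentage points and no longer passed (exact p = 0.055).

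**Figure D3:**
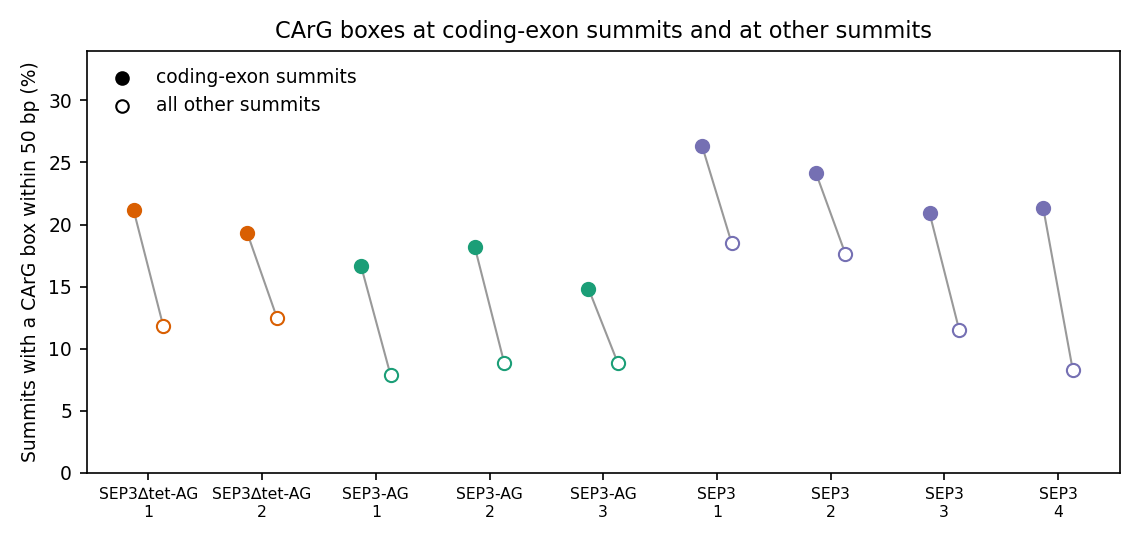
Percent of summits with a perfect CArG box within 50 bp, for coding-exon summits (filled) and all other summits (open) of each SEP3∆tet-AG, SEP3-AG and SEP3 library, with a line joining the pair. The filled point is the higher of the pair in all 9 libraries, by 6.03 to 13.1 percentage points.

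These shares were well above what coding sequence offers. Only 0.477% of all coding positions have a perfect box within 50 bp. A box with at most 1 mismatch lay within 50 bp of 53.5% to 71.4% of the coding summits of a library, and of 8.81% of coding positions. Windows reaching 50 bp to each side of coding summits had a mean GC content of 36.5% and 36.7% in SEP3∆tet-AG libraries, 37.3% to 37.8% in SEP3-AG libraries and 36.1% to 37.3% in SEP3 libraries. All coding bases average 44.0% GC, and the summit windows were below this in 9 of 9 libraries (exact sign-flip permutation p = 0.0039). Around other summits the mean was lower still, at 27.5% to 30.9%.

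The share of coding summits with a box was 20.2 ± 1.3% in SEP3∆tet-AG (SD, n = 2), 16.6 ± 1.7% in SEP3-AG (n = 3) and 23.2 ± 2.5% in SEP3 (n = 4). The SEP3-AG and SEP3 values did not overlap, with a difference of -6.62 percentage points, which missed the threshold after adjustment (exact permutation p = 0.029, adjusted p = 0.30). This difference changed sign, to 4.66, when the lists were cut to equal length. For the gap between coding and other summits, no difference between complexes passed (lowest exact permutation p = 0.63 over 3 pairs, adjusted p = 1 over 6 such contrasts, those of rank included).

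Coding summits ranked close to the other summits of their list. The probability that a coding summit had a higher -log10 p than another summit was 0.48 and 0.42 in SEP3∆tet-AG libraries, 0.45, 0.43 and 0.45 in SEP3-AG libraries, and 0.55, 0.47, 0.50 and 0.50 in SEP3 libraries, where 0.5 means no difference. It was below 0.5 in 7 of 9 libraries, and the mean of 0.473 ± 0.043 (SD, n = 9) missed the threshold (exact sign-flip permutation p = 0.10). Without SEP3 replicate 1, which has 19 coding summits, the mean was 0.462 and passed (exact permutation p = 0.023). With summits at least 50 bp inside the exon it was 0.507. Between complexes the mean was 0.441 in SEP3-AG and 0.507 in SEP3, a difference that missed the threshold (exact permutation p = 0.057, adjusted p = 0.34 over the 6 contrasts).

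A box in a coding exon was much less likely to be called than a box elsewhere. The genome holds 1600 perfect boxes lying wholly in coding exons and 1031 wholly in introns. Of the coding boxes, 1.63% and 1.19% lay within 50 bp of a summit in SEP3∆tet-AG libraries, 3.13%, 3.00% and 4.0% in SEP3-AG libraries, and 0.313%, 1.19%, 0.438% and 2.19% in SEP3 libraries. Of the intron boxes, 7.57% and 5.63% did in SEP3∆tet-AG libraries, 13.2%, 11.7% and 14.5% in SEP3-AG libraries, and 1.75%, 5.04%, 3.30% and 12.2% in SEP3 libraries. The coding value was lower in 9 of 9 libraries, with a mean difference of -6.43 percentage points (exact sign-flip permutation p = 0.0039). In promoters, the 1000 bp upstream of a gene, 15.2 ± 2.3% of 1379 boxes were near a summit in SEP3-AG libraries (SD, n = 3).

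**Figure D4:**
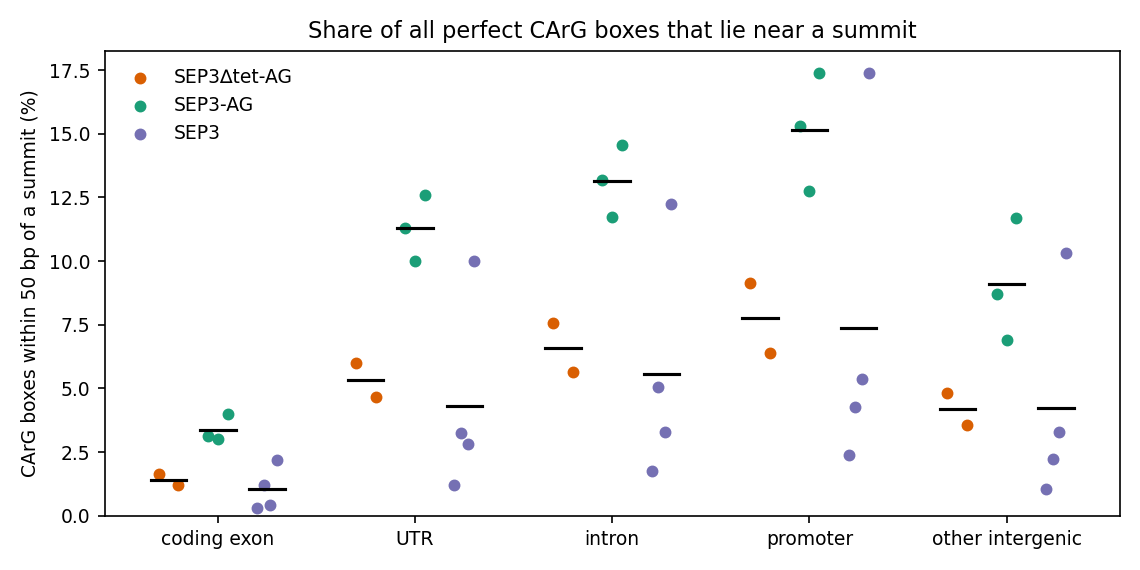
Percent of all perfect CArG boxes of the genome with a summit within 50 bp, by annotation class, for each SEP3∆tet-AG, SEP3-AG and SEP3 library (points) with the mean of each complex (bar). Coding exons have the lowest mean of the 5 classes for every complex, 1.41%, 3.38% and 1.03%.

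Base composition next to the box moved with this difference. Among the 10 bases on each side, 58.0% were A or T at coding boxes and 69.3% at intron boxes. Of 109 coding boxes with over 70 and up to 80% A or T in the flanks, 14 (12.8%) had a summit in at least 2 SEP3-AG libraries, against 50 of 304 intron boxes (16.4%). Of 436 coding boxes with at most 50% A or T, 4 (0.917%) did, against 1 of 46 intron boxes (2.17%). The 2 classes between these held 644 and 405 coding boxes. There the coding rates were below the intron rates, but in SEP3∆tet-AG and SEP3 the class of 50 to 60% rests on 1 to 3 called boxes. With over 60 and up to 70% A or T, the rates at coding and intron boxes were 1.73% and 3.87% in SEP3∆tet-AG, 3.95% and 10.3% in SEP3-AG, and 1.73% and 3.87% in SEP3. With over 50 and up to 60% they were 2.8% (18 of 644) and 5.83% (12 of 206) in SEP3-AG. In SEP3∆tet-AG they were 0.466% (3 of 644) and 0.971% (2 of 206), and in SEP3 0.311% (2 of 644) and 0.485% (1 of 206), too few to give a direction. In the class of 70 to 80%, SEP3∆tet-AG was called at 8.26% of coding and 7.57% of intron boxes, and SEP3 at 6.42% of coding and 6.91% of intron boxes. If coding boxes had been called at the intron rate of their flank class, 7.27%, 6.13% and 7.66% would have been near a summit in the 3 SEP3-AG libraries, against 12.8%, 11.8% and 14.0% at the intron rate of their own box sequence. The observed 3.13%, 3.00% and 4.0% were below both. By flank class the SEP3∆tet-AG libraries would have had 2.51% and 1.98%, and 1.63% and 1.19% were observed. The SEP3 libraries would have had 0.664%, 1.61%, 1.02% and 5.06%, and 0.313%, 1.19%, 0.438% and 2.19% were observed. The part of flanking bases in the difference was not tested.

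**Figure D5:**
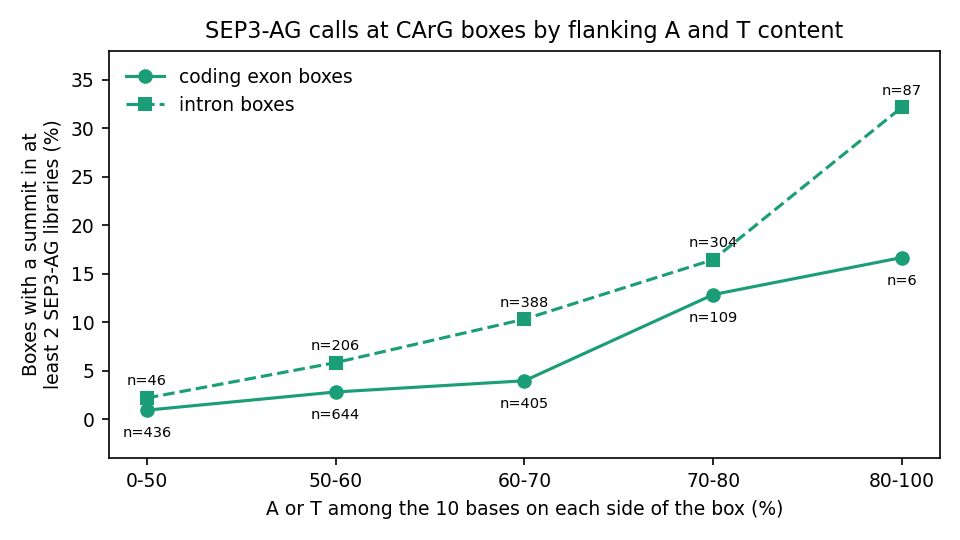
Percent of perfect CArG boxes with a summit in at least 2 SEP3-AG libraries against the percent of A or T among the 10 bases on each side, for boxes in coding exons (circles) and introns (squares); n is the number of boxes. Coding boxes reach 12.8% and intron boxes 16.4% in the class of 70 to 80%, and the last coding class holds only 6 boxes.

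Calls were also counted by the letters inside the box. The 1600 coding boxes fall into 36 sequences when both strands are merged. CCAAATAAGG was called in at least 2 SEP3-AG libraries at 7 of 53 coding occurrences (13.2%), CCAAAAAAGG at 8 of 93 (8.60%) and CCAAATTTGG at 5 of 75 (6.67%). A further 19 sequences, with 555 coding occurrences, had no such call, although the same sequences had 23 calls among 318 intron occurrences. Reading frame was recorded as a description. Of 1582 coding boxes with a defined frame, 42.5% began at codon position 1, 39.3% at position 2 and 18.2% at position 3. Of the 17 called by SEP3∆tet-AG 5, 9 and 3 began at positions 1, 2 and 3, of the 51 called by SEP3-AG 19, 23 and 9, and of the 15 called by SEP3 3, 11 and 1. These counts are small, come from boxes that complexes share, and were not tested.

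Coding summits sat near exon edges. The median distance from a coding summit to the end of the coding stretch was 32.5 and 40.5 bp in SEP3∆tet-AG libraries, 30.5, 33.0 and 34 bp in SEP3-AG libraries, and 68.0, 45.0, 18.0 and 29.0 bp in SEP3 libraries. At least 50 bp inside lay 38.5% and 45.6% of coding summits in SEP3∆tet-AG libraries, 38.5%, 38.8% and 41.3% in SEP3-AG libraries, and 52.6%, 47.3%, 25.6% and 31.6% in SEP3 libraries. Of all coding bases 62.5% lie that deep, and the summits were below this in 9 of 9 libraries (exact sign-flip permutation p = 0.0039). Of 366 coding summits with a box, 260 (71%) had the box nearest the summit wholly in coding sequence, 81 across an edge and 25 wholly outside it.

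The 81 summits over an edge marked 31 distinct boxes. Of these, 13 crossed a 5′ splice site, 8 a 3′ splice site, 6 a start codon and 4 a stop codon. CYP71A19, a cytochrome P450 gene, gives an example, shown because the box crosses an exon edge and the summit falls on either side of it in different libraries.
CYP71A19, chr4:7741840-7741879, plus strand, perfect box in capitals: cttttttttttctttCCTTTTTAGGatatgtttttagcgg
Its summit was coding in SEP3-AG replicates 1 and 2 (13.6- and 13.2-fold) and outside the exon in replicate 3 (15.7-fold). It was outside the exon in both SEP3∆tet-AG libraries (6.53- and 4.26-fold) and in SEP3 replicates 2, 3 and 4 (3.74-, 2.97- and 4.20-fold).

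Along the coding sequence the mean position of summits was near the middle in most libraries. It was 48.3% and 49.2% of the way from start to stop codon in SEP3∆tet-AG libraries, 51.3%, 50.9% and 49.5% in SEP3-AG libraries, and 49.2%, 41.5%, 38.7% and 48.7% in SEP3 libraries. SEP3 replicates 2 and 3 lay further towards the start, and the difference between SEP3-AG and SEP3 of 6.02 percentage points missed the threshold (exact permutation p = 0.11, adjusted p = 0.30). First coding exons held 33.9 ± 1.7% of coding summits in SEP3∆tet-AG, 27.7 ± 1.3% in SEP3-AG and 31.8 ± 6.5% in SEP3 (SD), beside 35.7% of all coding bases. Of the 2037 coding summits, 203 (9.97%) also lay within 1000 bp upstream of another gene, where 11.8% of coding bases lie.

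Long genes were prominent among the members. The median coding length was 1524 bp for genes with a coding summit and 1047 bp for all genes, so counts of a family are set beside its share of genes and of coding length. Receptor-like kinases, which sense ligands at the cell surface, had 3 of 119 genes called in SEP3∆tet-AG, 5 in SEP3-AG (4.20%) and 2 in SEP3. They are 0.434% of genes and 0.768% of coding length, and 1.19% of the genes called in SEP3-AG. When receptor-like proteins were added, a widening of the list made after the data had been seen, 8 of 179 genes were called in SEP3∆tet-AG, 17 in SEP3-AG (9.50%) and 3 in SEP3. The wider list is 0.652% of genes and 1.14% of coding length, and 4.06% of the genes called in SEP3-AG. Among the 52 genes named RLP, receptor-like proteins without a kinase domain, 5 were called in SEP3∆tet-AG, 11 in SEP3-AG and 1 in SEP3, and 35 of the 52 have a single coding exon. The 11 include RLP23 and RLP24, and RLP26, RLP27 and RLP28, which have matching exon windows within each set. Their calls are therefore not independent.

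Among the other families the share called in SEP3-AG ran from 0 to 6.67%, beside 1.53% of all genes. The counts were 23 of 1375 kinases (1.67%), 7 of 652 F-box genes (1.07%), 11 of 913 zinc finger genes (1.20%), 20 of 963 hydrolases (2.08%), 4 of 191 disease resistance genes (2.09%), 5 of 239 cytochrome P450 genes (2.09%), 9 of 282 pentatricopeptide repeat genes (3.19%) and 6 of 151 genes with a cysteine/histidine-rich C1 domain (3.97%). ABC transporters, with 4 of 77 (5.19%), and calmodulin-related genes, with 4 of 60 (6.67%), had higher shares from few genes. NAC factors had 3 of 105 called in SEP3-AG, namely NAC004, NAC075 and NAC076. No gene of the WRKY (72 genes), bZIP (63), MATE (55) or kinesin (29) lists was called in at least 2 libraries of any complex. With 1.53% of all genes called in SEP3-AG, lists of this size cannot show whether such genes were called less often than others. These are counts with no test, and product names define the lists.

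The MADS-box family and flower regulators, the classic targets of these proteins, had few coding summits, as did genes in general. Of 123 genes whose product or symbol names the MADS-box family or an AGAMOUS-like protein, 1 (0.813%) had a coding summit in any library, beside 2.93% of all genes, and 0 were called in at least 2 libraries of a complex. That gene was DTA4, in 1 SEP3 library, and its product is named as a downstream target of AGL15, not as a MADS-box protein. Of 55 flower regulators, 2 (3.64%) had a coding summit, each in a single library, and 0 were called in at least 2 libraries of a complex. With 0.35% of all genes called in SEP3∆tet-AG, 1.53% in SEP3-AG and 0.262% in SEP3, lists of this size cannot show whether such genes were called less often than others. INO, a YABBY factor of the outer integument, had one in a SEP3∆tet-AG library and SPT, a carpel factor, in a SEP3 library.

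Exons shared between related genes accounted for a minority of members. A summit was taken to lie in a repeated exon when its window, reaching 100 bp to each side, matched, with at least 80% identity over 100 bp, the window of a coding summit in another gene. This held for 136 coding summits (6.68%), in 20 groups of 43 genes. The authors kept only reads that aligned to a single place, and the effect of this on alike exons was not tested. The share was 8.33% and 8.77% in SEP3∆tet-AG libraries, 6.76%, 5.8% and 6.36% in SEP3-AG libraries, and 5.26%, 6.59%, 4.65% and 7.11% in SEP3 libraries. Both SEP3∆tet-AG values were above the rest, and the difference from SEP3-AG was 2.25 percentage points (exact permutation p = 0.10, the smallest that these libraries allow, adjusted p = 0.30).

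The 3 largest groups had 3 genes each. In the receptor-like protein group, RLP28 was enriched 4.78- and 4.99-fold in SEP3∆tet-AG libraries, 4.31-, 4.19- and 8.70-fold in SEP3-AG libraries and 3.15-fold in SEP3 replicate 4. RLP27 had summits in both SEP3∆tet-AG libraries (3.17- and 2.84-fold) and in SEP3-AG replicates 1 and 3 (3.25- and 4.62-fold), and RLP26 in SEP3-AG libraries alone (3.32-, 3.57- and 4.32-fold). The same stretch of the 3 genes is shown so that the bases at the RLP28 box, in capitals, can be compared.
RLP26, chr2:14022222-14022261, plus strand: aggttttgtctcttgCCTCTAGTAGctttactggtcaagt
RLP27, chr2:14026034-14026073, plus strand: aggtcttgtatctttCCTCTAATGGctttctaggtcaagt
RLP28, chr2:14032397-14032436, plus strand: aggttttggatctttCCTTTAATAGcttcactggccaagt
The capitals differ from a perfect box at 3 positions in RLP26, at 1 in RLP27 and at 1 in RLP28. The RLP26 summit lay outside this stretch, 43.5 bp from a 1-mismatch box of its own, so its printed bases are not those of its bound site.

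In the GDSL lipase group, AT1G28600 was enriched 3.36- and 3.46-fold in SEP3∆tet-AG libraries, 9.63-, 8.83- and 9.40-fold in SEP3-AG libraries and 4.04-fold in SEP3 replicate 4. AT1G28610 had summits in SEP3-AG libraries (4.55-, 4.68- and 5.72-fold) and in SEP3 replicate 4 (3.10-fold), and AT2G27360 in SEP3 replicate 4 alone (3.77-fold). Each had a box with 1 mismatch, and capitals mark the box nearest to the leading summit. It lay 28.5 bp away in AT1G28600, 0.5 bp in AT1G28610 and 11.5 bp in AT2G27360. The AT1G28610 stretch also holds, in small letters, the CTAAAAATGG that is in capitals in AT2G27360.
AT1G28600, chr1:10052452-10052491, minus strand: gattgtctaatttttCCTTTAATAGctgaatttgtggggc
AT1G28610, chr1:10055028-10055067, minus strand: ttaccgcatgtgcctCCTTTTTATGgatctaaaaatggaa
AT2G27360, chr2:11706739-11706778, plus strand: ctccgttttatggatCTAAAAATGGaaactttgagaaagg
In the TRAF-like group, AT5G26260 had no box of either kind within 50 bp of its leading summit and was enriched 4.02-, 3.38- and 5.82-fold in SEP3-AG libraries and 3.88- and 3.31-fold in SEP3 replicates 2 and 4. AT5G26280 had summits in SEP3-AG replicate 1 (2.75-fold) and SEP3 replicate 4 (2.91-fold), and AT5G26290 in SEP3 replicate 4 alone (2.55-fold). The SEP3-AG summit of AT5G26280 was not in its coding exons, and AT5G26260 had a coding summit in only 1 SEP3 library. Of the 40 bases around the AT5G26260 summit, AT5G26280 matched at 32 and AT5G26290 at 37. The leading summits of AT5G26280 and AT5G26290 lay outside the matching stretches, each with a 1-mismatch box of its own within 50 bp.

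Copies of bound exons gave a comparison within families. Each consensus site was aligned to the genome, and 183 pairs of a site and a copy in a coding exon of another gene reached 80% identity over 100 bp. In 27 of these pairs the site held a perfect box, and 5 copies kept one. Of the 5 copies with a box 4 had a summit in at least 1 library, and of the 22 without one 3 did. The aligned stretch need not cover the box. Over the 40 bases around it, copies with a box matched at 34 to 36 and those without at 20 to 37. The pairs with a box count AT3G47890 and AT3G47910 in both directions. Pairs share genes and are not independent, so no test was made. Reads that aligned to more than a single place had been removed, so a copy without a summit need not be an unbound copy.

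RLP23 and RLP24 show a box kept in both copies. It lay wholly within 50 bp of the leading RLP23 summit (chr2:13861926) but not of the leading RLP24 summit (chr2:14015810). RLP23, a receptor of microbial peptides, was enriched 5.27- and 4.64-fold in SEP3∆tet-AG libraries, 5.72-, 5.09- and 8.21-fold in SEP3-AG libraries and 3.67-fold in SEP3 replicate 4. RLP24 was enriched 4.69- and 4.55-fold in SEP3∆tet-AG libraries, 5.09-, 4.78- and 6.83-fold in SEP3-AG libraries and 2.79-fold in SEP3 replicate 4.
RLP23, chr2:13861950-13861989, minus strand: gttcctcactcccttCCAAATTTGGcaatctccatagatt
RLP24, chr2:14015843-14015882, the copy: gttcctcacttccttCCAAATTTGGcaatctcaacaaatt
In the DUF247 cluster the box was not kept. AT3G50190 was bound in all 9 libraries, and its neighbours AT3G50170 and AT3G50140 had no summit within 200 bp in any. Over 40 bases, AT3G50170 matched at 37 and AT3G50140 at 34, but the capitals of both differed from a perfect box at 3 positions.
AT3G50190, chr3:18609225-18609264, minus strand: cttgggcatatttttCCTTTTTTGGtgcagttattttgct
AT3G50170, chr3:18601924-18601963, the copy: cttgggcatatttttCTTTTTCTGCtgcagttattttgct
AT3G50140, chr3:18592533-18592572, the copy: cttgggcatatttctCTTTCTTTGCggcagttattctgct

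A kept box was not always accompanied by a summit. SK21, a gene of the SKP1-like family of ubiquitin ligase adaptors, had summits in all 9 libraries, at 8.81- and 6.51-fold in SEP3∆tet-AG, 12.2-, 13- and 14.6-fold in SEP3-AG, and 4.22-, 5.40-, 4.22- and 4.33-fold in SEP3. Its copy SK20 kept the same 10 letters and had no summit in any library.
SK21, chr3:22723173-22723212, minus strand: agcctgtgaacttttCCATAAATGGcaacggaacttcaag
SK20, chr2:18904728-18904767, the copy: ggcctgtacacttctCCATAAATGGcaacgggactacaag
PRORP2 and PRORP3 went the other way. The perfect box of PRORP3 has 1 mismatch in PRORP2, yet PRORP2 had summits in 8 libraries and PRORP3 in 6. In SEP3-AG libraries PRORP2 was enriched 11.7-, 12.3- and 14.6-fold and PRORP3 2.91-, 3.37- and 3.85-fold, whereas in SEP3 replicate 4 PRORP3 reached 5.19-fold and PRORP2 3.95-fold. These 4 sets of copies were chosen for display after their values were seen.
PRORP3, chr4:11616824-11616863, minus strand: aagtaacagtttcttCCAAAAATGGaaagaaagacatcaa
PRORP2, chr2:7216308-7216347, minus strand: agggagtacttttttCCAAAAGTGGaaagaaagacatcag

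A few genes held several coding sites. AT3G28770, a long gene with a coding length of 6246 bp, had 4 separate sites, and HKT1, ASD2 and PTM had 3 each. PTM, a PHD-type factor of chloroplast signalling, was enriched at its leading site in SEP3-AG libraries alone (8.87-, 7.95- and 9.78-fold). In all, 28 of the 804 genes had at least 2 coding sites.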

How the data were processed

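Peak lists of 9 affinity-purified libraries of Arabidopsis thaliana genomic DNA were analysed. The authors aligned reads to TAIR10 with Bowtie2, kept reads that aligned to a single place, and called peaks with MACS2 in each library against 1 input. The deposited lists gave, per summit, fold enrichment (a ratio over the local input background), −log10 p and −log10 q (lowest 4.01). A whole-number score column, written by the authors' peak caller into the deposited lists, was not used. Peak lists without reads were used, so depth was not compared. Summits were placed on RefSeq coding exons of TAIR10.1, whose chromosomes hold every peak. Boxes were searched within 50 bp, windows were compared with blastn 2.17.0, and Wilson intervals are at 95%. Complexes were compared over libraries with exact permutation tests, and coding with other summits by exact sign-flip tests (Python 3.11.15, scipy 1.17.1), all tested on simulated data. Alternatives changed the q threshold, summits per region, list length, annotation, exon edge, box definition, identity and libraries used. Sign-flip p-values were adjusted over 6 tests, 4 of them added after the data had been seen, as were the flank, box sequence, reading frame and exon copy descriptions.

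Named genes were those called in most libraries, those of a single complex, listed genes, the 3 largest repeated groups and genes with most sites. Members, lists and the rule were chosen with earlier results of these data known.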

Additional observations from a re-analysis of the deposited data

How the results depend on the processing

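Cutting the lists of a pair to equal length changed the sign of the difference in coding share for SEP3∆tet-AG minus SEP3-AG (0.92 percentage points), SEP3-AG minus SEP3 (-0.42) and SEP3∆tet-AG minus SEP3 (-1.06), of the box share for SEP3-AG minus SEP3 (4.66), and of the position for SEP3∆tet-AG minus SEP3 (-3.26). The position of SEP3∆tet-AG minus SEP3 was -0.40 with summits at least 50 bp inside the exon, the box share of that pair was 0.79 with 1 mismatch allowed, and the repeated exon share of SEP3-AG minus SEP3 was -0.12 at 70% identity over 60 bp and between -0.015 and 0.80 when 1 library was left out. With the replicate number as a block, the coding share of SEP3∆tet-AG minus SEP3 was -0.93. Same-numbered libraries deviated the same way in 16 of 28 pairings, nothing in the labels says that the numbers pair libraries, and the block changed no call. None of these differences passed in either setting, and the cause was not tested.

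The higher box share at coding summits passed under every alternative except 1 mismatch (4.6 percentage points), and was 8.01 to 8.89 when 1 library was left out. The rank of coding summits was 0.458 with −log10 q of at least 10, which passed (exact permutation p = 0.020), 0.507 with summits at least 50 bp inside the exon, and 0.462 to 0.479 when 1 library was left out. With a summit in any library, 173 SEP3∆tet-AG, 656 SEP3-AG and 265 SEP3 genes were counted, and with a summit in every library 11 SEP3 genes. Leaving out 1 library gave 25 to 71 SEP3 genes, the lowest without replicate 4. Sharing of SEP3∆tet-AG sites with SEP3-AG was 83.2% with a summit in every library and 83.1 to 88.0% with 1 library left out, the lowest without SEP3-AG replicate 3. Sharing of SEP3 sites was 94.4% with a summit in every library, 83.9% with −log10 q of at least 10 and 71.2 to 85.5% with 1 library left out, the highest without replicate 4. The lower share of called boxes in coding exons than in introns was -7.06 to -5.92 percentage points with 1 library left out, alternatives added after the data had been seen.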
